A study of Mus musculus with 3 samples.

Results

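Megakaryocyte progenitors were picked out of single-cell transcriptomes of mouse bone marrow nuclear cells (BMNCs) collected at 14 days post-irradiation (DPI). A cell was taken as a member when it had at least 1 UMI (a counted RNA molecule) in 4 or more of 8 megakaryocyte and platelet genes, namely Pf4, Itga2b, Gp1bb, Gp9, Rab27b, Treml1, Mmrn1 and Cavin2, and at most 1 UMI of Car1, an erythroid carbonic anhydrase. Of 31292 kept cells, 337 met this rule. Kept cells had 200 or more genes and at most 5% of their UMIs in mitochondrial genes, out of 36035 barcodes. The members were selected on these counts, so the levels of the 8 genes are a description and support nothing.

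Each condition had 1 library, and each library pooled cells flushed from the femurs of 3 C57BL/6 mice. Sorting by lineage (Lin) and Kit staining gave 3 fractions, which were remixed at 5 parts Lin-Kit+, 4 parts Lin-Kit- and 1 part Lin+ cells. The Control library came from mice without irradiation. The IR library came from mice given 6.0 Gy of Cobalt-60 gamma rays and solvent (soybean oil with DMSO). The IR+CBD library came from mice given the same 6.0 Gy and cannabidiol (CBD), dissolved in that solvent and injected into the peritoneum before and after irradiation. No engineered allele is named for any group, and the study used male mice. With 1 library per condition no test between conditions could be made, and every interval in the text is an exact 95% interval that covers counting error only. A share is a share of the remixed cells, so the sort mix sets its level.

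Megakaryocytes descend from HSCs through progenitors that express the integrin subunit Itga2b and respond to thrombopoietin. They replicate DNA without dividing, fill with granules that carry proteins such as Pf4 and von Willebrand factor, and shed platelets into marrow sinusoids. They also lie close to HSCs and secrete factors that act on them, and a fall in platelets is a well-known result of irradiation.

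Kept cells numbered 10674 in the Control library, 10345 in the IR library and 10273 in the IR+CBD library, out of 199383228, 206932522 and 177806843 UMIs in all barcodes. Members had a median of 18617, 21427.5 and 18961 UMIs per cell, against 12270, 14119 and 12381.5 in the other kept cells of the Control, IR and IR+CBD libraries. The 5 deepest members held 8.29%, 18.9% and 12.6% of the members' UMIs. The library pairs shared between 35 and 51 barcodes, and 0 of these were members in both libraries. Doublets were not removed from the main values, and a Scrublet score that left out 911, 856 and 844 kept cells would have left out 24, 12 and 8 members. These were 14.1%, 17.1% and 8.25% of Control, IR and IR+CBD members, against 8.53%, 8.27% and 8.22% of kept cells.

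Members were scarcer in both irradiated libraries than in the Control library. The 170 Control members were 1.59% of kept cells (1.36 to 1.85). The 70 IR members were 0.677% (0.528 to 0.854). The 97 IR+CBD members were 0.944% (0.766 to 1.15). The IR share was 0.425 times the Control share (0.317 to 0.564), and the IR+CBD share was 0.593 times it (0.457 to 0.765). The IR+CBD share was 1.40 times the IR share (1.02 to 1.93), an interval whose lower end lay close to 1. Members with exactly 4 of the rule's genes were 0.350% of IR+CBD and 0.193% of IR kept cells. With at least 5 of these genes the IR+CBD and IR shares were 0.594% (0.454 to 0.762) and 0.483% (0.359 to 0.637), with overlapping intervals. Because a cell enters by its UMIs, fewer such cells and less RNA of these genes per cell cannot be told apart in these shares. When every cell was thinned to 2000 UMIs, with 401, 296 and 452 shallower cells left out, 17, 5 and 9 cells met the rule, and the IR share was 0.301 times the Control share. Without members carrying another lineage's markers the IR+CBD share was 0.775 times the Control share (0.512 to 1.16), an interval that held 1.

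**Figure D1:**
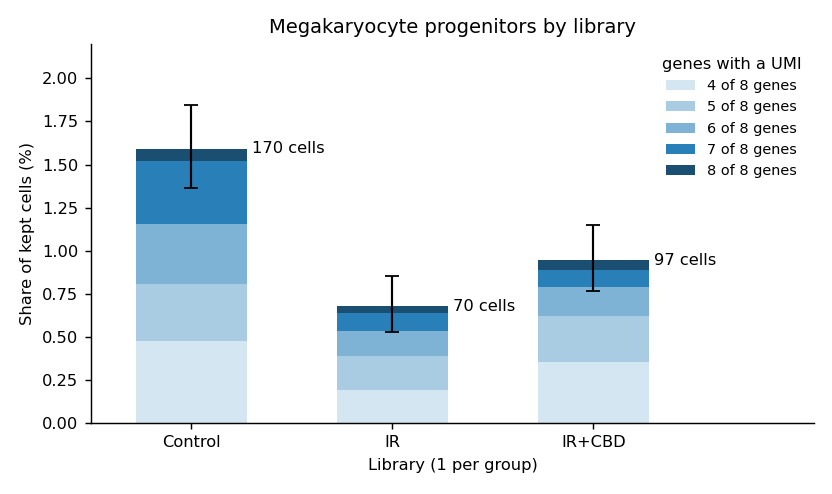
Share of kept cells (%, vertical axis) that were megakaryocyte progenitors in each library, with bars divided by how many of the 8 genes had a UMI and error lines giving exact 95% intervals of counting error. The Control bar (1.59%) lies above the IR bar (0.677%) and the IR+CBD bar (0.944%), and all 5 counts of genes occur in each library.

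Just inside the rule were 51 Control, 20 IR and 36 IR+CBD members with 4 of the 8 genes. Just outside it were 89, 49 and 60 cells with 3 genes, whose median depths of 17802, 23119 and 17200.5 UMIs were like those of members. Pf4 was at 330, 171 and 512 CPM (UMIs per 1000000 UMIs of the summed cells) in members with 4 genes and at 67.6, 37.9 and 151 CPM in cells with 3. A further 15, 18 and 11 cells carried 4 or more of the genes with Car1 above the limit. In these Car1-bearing cells Pf4 was at 3420, 523 and 1182 CPM in the Control, IR and IR+CBD libraries.

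Some marker genes that the rule did not name were also higher in members than in other cells. Vwf, which encodes the platelet adhesion protein von Willebrand factor, was 39.8, 37.4 and 51.8 times as high in Control, IR and IR+CBD members as in the other kept cells of the same library. The gene with the largest such ratio over the 3 libraries was Trpc6, a cation channel gene, at 59.8, 168 and 213 times the level in other cells. Since members were selected from the same counts, these ratios are a description.

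The other genes that ranked among the first 20 by this ratio formed recognisable platelet groups. F2r and F2rl2 encode thrombin receptors, and F2r was 14.2, 16.9 and 18.9 times as high in members of the Control, IR and IR+CBD libraries. Prkg1 and Pde5a act in cyclic GMP signalling, and Prkg1 was 15.0, 30.7 and 24.9 times as high. Tbxas1 encodes thromboxane synthase and was 8.81, 15.8 and 17.4 times as high. Med12l, a Mediator subunit gene, reached 342, 333 and 351 CPM and was 18.1, 34.8 and 35.0 times as high. Each of these genes was higher in members than in other cells in every library.

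Of the late megakaryocyte and platelet genes looked at, some were at or near 0 and others were present. Gp5, a subunit of the von Willebrand factor receptor, was at 50.6, 45.1 and 52.3 CPM in Control, IR and IR+CBD members, with a UMI in 58.2%, 58.6% and 61.9% of them. Tubb1, the platelet beta-tubulin, had a UMI in 0 of 170 Control members, which allows a share of up to 1.76% by the limit of 3 counts and 2.15% by the exact interval. It was at 0.512 CPM in IR and 0.494 CPM in IR+CBD members. Myl9 was at 0, 0 and 1.97 CPM, and Ppbp, a platelet chemokine gene, was at 4.46, 2.05 and 9.38 CPM. Kit, the stem cell factor receptor used in the sort, was at 81.8, 76.8 and 63.7 CPM, and Cd34 was at 54.6, 51.7 and 41.9 CPM. Klf1, an erythroid transcription factor, was at 2.36, 8.71 and 6.91 CPM in members against 27.2, 69.8 and 61.8 CPM in other cells.

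The rule genes also had UMIs in some cells of another lineage, and these shares differed between the genes. In B lineage cells, with median depths of 4002, 3867 and 3405 UMIs, 1.06%, 1.09% and 0.972% had a Pf4 UMI, against 87.1%, 90% and 90.7% of members in the Control, IR and IR+CBD libraries. Thinned to 2000 UMIs per cell, 57.6%, 50% and 62.5% of members and 0.195%, 0.292% and 0.207% of B lineage cells had one. Cavin2, a caveolar coat gene, had a UMI in 0.106%, 0.0465% and 0.0270% of B lineage cells. Mmrn1, which encodes the alpha-granule protein multimerin, had one in 6.02%, 3.70% and 1.62% of B lineage cells, against 45.3%, 41.4% and 27.8% of members. Thinned, these were 2.205%, 1.46% and 0.621% of B lineage cells and 5.88%, 7.14% and 4.17% of members, so Mmrn1 set the members least apart among these 3 genes.

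Pf4, the platelet factor 4 chemokine gene, varied widely among members within each library. Single members of the Control library ranged from 0 to 23038 CPM with a median of 616 CPM. IR members ranged from 0 to 13233 CPM with a median of 345 CPM. IR+CBD members ranged from 0 to 22951 CPM with a median of 1037 CPM. The ranges overlapped almost wholly, and 22, 7 and 9 members had no Pf4 UMI. Summed over members, Pf4 was at 2694, 1665 and 2696 CPM, so IR was 0.618 times Control (0.594 to 0.643) and IR+CBD was 1.62 times IR (1.55 to 1.69). With Car1 at 0 in every member the ratios were 0.408 and 2.54. Other alternatives moved the IR over Control ratio the other way. It was 0.747 without members carrying another lineage's markers, and 0.859 (0.612 to 1.18) when cells were thinned to 2000 UMIs.

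The other rule genes moved less evenly. Cavin2 was at 173, 80.9 and 109 CPM, and IR was 0.468 times Control (0.391 to 0.558). Itga2b, the alphaIIb subunit of the fibrinogen receptor, was at 236, 177 and 208 CPM. Rab27b, a granule docking GTPase gene, was at 181, 136 and 155 CPM, and Mmrn1 was at 40.7, 31.8 and 24.2 CPM. Gp9, a subunit of the von Willebrand factor receptor, had the opposite order, at 59.3, 67.6 and 84.9 CPM. Treml1, an alpha-granule receptor gene, was at 75.8, 68.6 and 70.6 CPM, and Gp1bb was at 9.97, 15.9 and 14.3 CPM, each with overlapping intervals between the libraries.

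**Figure D2:**
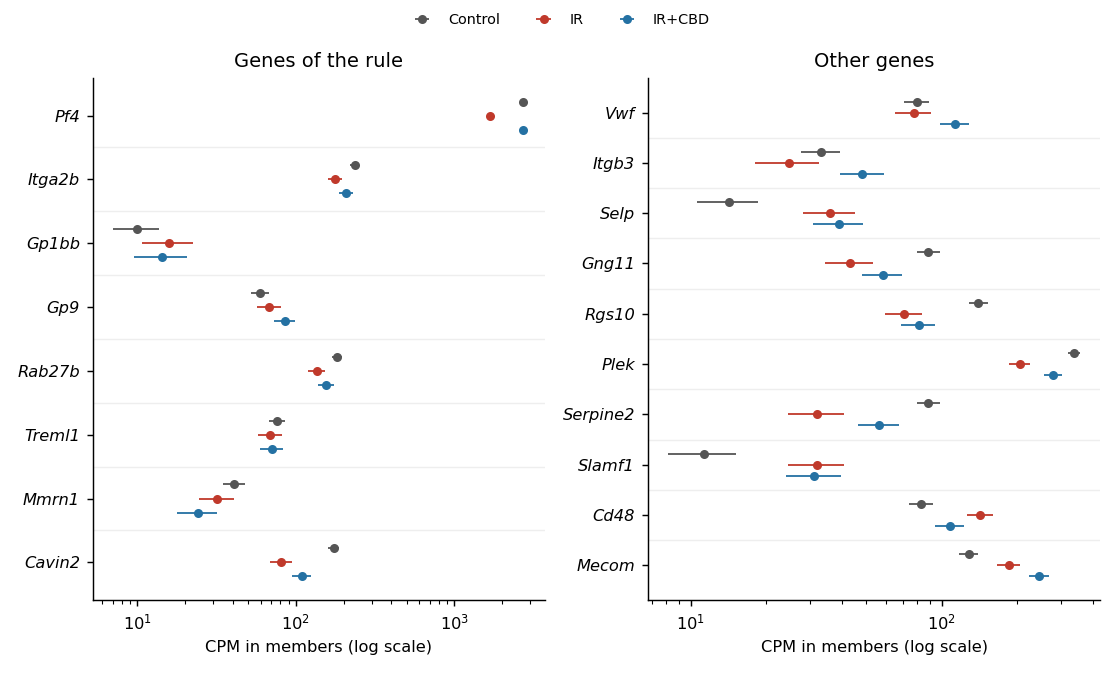
CPM summed over members (log scale) for the 8 genes of the rule, left, and for 10 other genes of the megakaryocyte and stem lists, right, with points for the Control, IR and IR+CBD libraries and lines for exact 95% Poisson intervals. Cavin2, Rgs10, Gng11 and Serpine2 lie lower in IR than in Control members, and Selp and Slamf1 lie higher in both irradiated libraries.

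Among members, Vwf and Fli1 were higher in cells with more rule genes, and Mecom was lower. The genes shown here were chosen after their values were seen. Vwf was at 18.3, 58.4 and 153 CPM in Control members with 4, with 5 or 6 and with 7 or 8 rule genes. The same order held in IR members, at 8.81, 88.0 and 133 CPM, and in IR+CBD members, at 49.8, 108 and 215 CPM. Fli1, an ETS transcription factor gene active in megakaryocytes, was higher along the same strata in each library, at 338, 441 and 659 CPM in Control members. Kit ran the other way, at 117, 83.4 and 52.7 CPM in Control members. Mecom, a transcription factor gene of HSCs, was lower along the strata, at 223, 124 and 59.8 CPM in Control members, at 257, 174 and 128 CPM in IR members, and at 281, 265 and 153 CPM in IR+CBD members. Median depth was higher in members with 7 or 8 genes (22519, 25223 and 27636.5 UMIs) than in those with 4 (16943, 21202.5 and 17968 UMIs), and its part in these orders was not tested.

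Over the 9644 genes with at least 50 UMIs in members of the 3 libraries, ratios of 1.5-fold or more were counted. IR members were that much higher than Control members for 593 genes (6.15%) and lower for 465 genes (4.82%). IR+CBD members were higher than IR members for 373 genes (3.87%) and lower for 770 genes (7.98%). The median log2 ratio over all these genes was 0.04 for IR over Control and -0.05 for IR+CBD over IR. By any amount, 56.7% of them were higher in IR than in Control members, and 41.3% were higher in IR+CBD than in IR members. Counts of list genes by direction below stand beside these shares. Both comparisons use the same IR library, so a chance high or low count in it enters both with opposite sign.

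**Figure D3:**
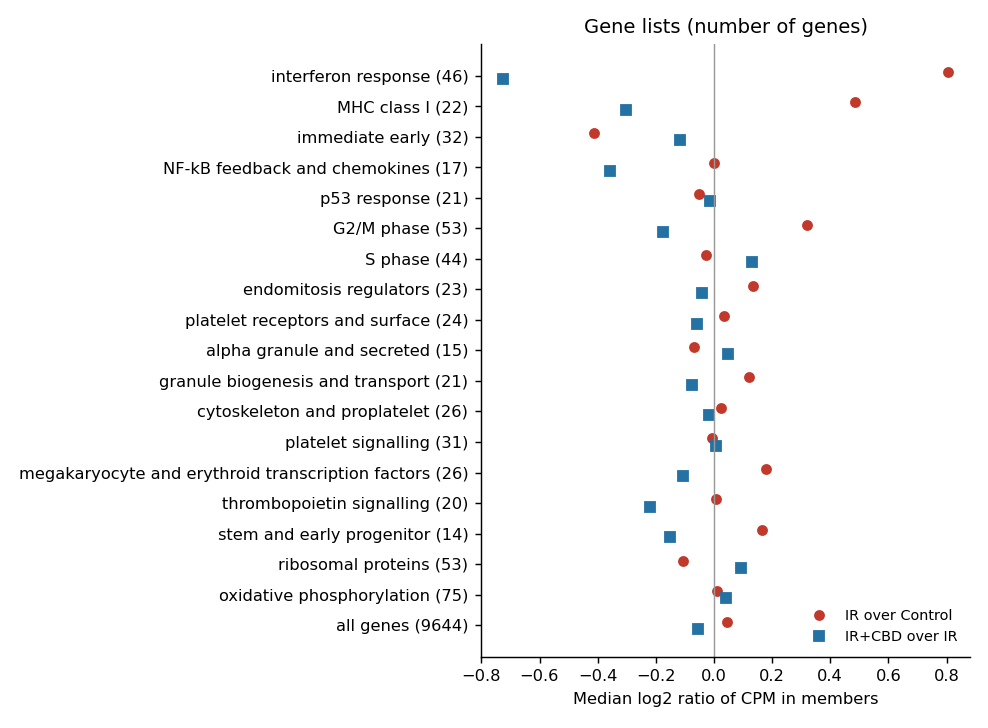
Median log2 ratio of CPM in members for a selection of the gene lists, without the markers of other lineages, with the number of genes in brackets, for IR over Control (circles) and IR+CBD over IR (squares). Of the lists drawn, interferon response lies farthest from the line at 0 in both comparisons (0.81 and -0.72), with MHC class I genes next on the right, while the platelet lists lie near the median of all genes.

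The interferon response list was higher in IR members than in Control or IR+CBD members. These genes are induced by interferons through STAT and IRF transcription factors and encode antiviral and antigen-processing proteins. Of 46 listed genes with enough UMIs, 44 were higher in IR than in Control members, 30 by 1.5-fold or more against 6.15% of all genes, and the median log2 ratio was 0.81. In IR+CBD over IR, 44 were lower, 28 by 1.5-fold or more against 7.98% of all genes, with a median of -0.72. Between IR+CBD and Control the median was 0.03. Without members carrying another lineage's markers, 23 genes had enough UMIs and the medians were 0.41 for IR over Control and -0.40 for IR+CBD over IR.

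Per member, the summed CPM of the list had a lowest value, median and highest value of 992, 2585 and 5890 in the Control library. In the IR library these were 2411, 4202 and 10661. In the IR+CBD library they were 1639, 2711 and 8598. The lower quartile of IR members (3498 CPM) lay above the upper quartile of Control members (3257 CPM) and of IR+CBD members (3209 CPM), while the full ranges overlapped. MHC class I genes, which present peptides to T cells, followed with summed levels of 5029, 7350 and 5829 CPM.

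**Figure D4:**
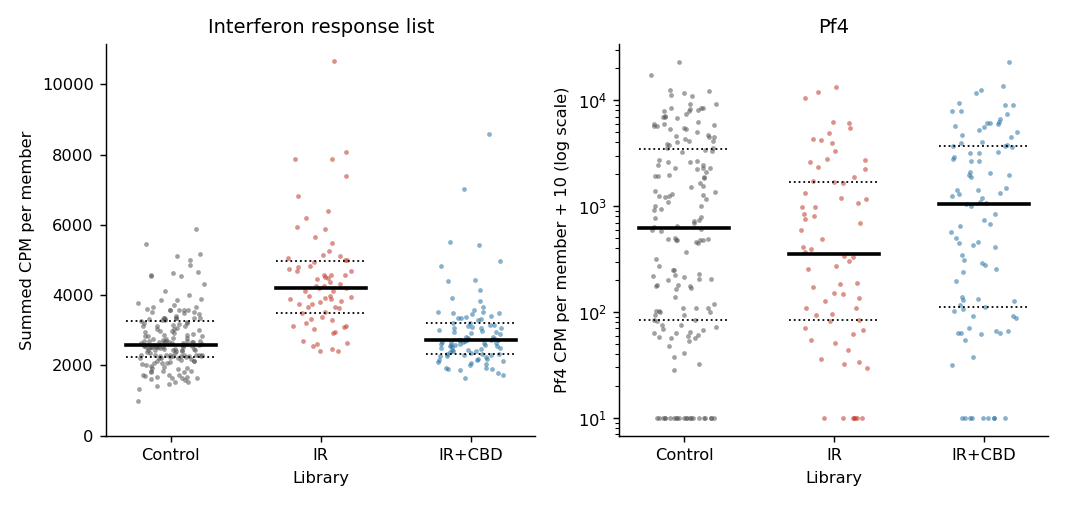
One point per megakaryocyte progenitor in each library, with the median as a thick line and the quartiles as dotted lines, for the summed CPM of the interferon response list (left, linear axis from 0) and for Pf4 CPM plus 10 (right, log scale). The IR median for interferon genes (4202) lies above the Control (2585) and IR+CBD (2711) medians, and Pf4 spans the same wide range in the 3 libraries.

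Several interferon genes were abundant in all members and others were nearly off outside the IR library. Ifitm3, a membrane protein gene that blocks virus entry, was at 638, 935 and 681 CPM. Ly6e was at 291, 476 and 340 CPM. Ifi27 was at 59.8, 197 and 71.1 CPM, and IR was 3.29 times Control (2.78 to 3.89). In each case the IR level was above both of the others, which lay close together.

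The largest ratios of the list were at low levels. Ifi27l2a was at 18.6, 114 and 9.38 CPM, so IR was 6.13 times Control (4.68 to 8.13), and IR+CBD was 0.0821 times IR (0.0485 to 0.131). It had a UMI in 28 of 170, 36 of 70 and 13 of 97 members, and 1 IR member held 58 of the 223 UMIs. Without the 5 deepest members of each library its ratios were 3.84 and 0.127. Rtp4, which encodes a receptor transporter with antiviral action, was at 6.30, 35.3 and 2.96 CPM with a UMI in 20, 30 and 6 members. Irf9, a subunit of the factor that binds interferon response elements, was at 8.66, 33.3 and 13.8 CPM, and Isg15, a ubiquitin-like modifier gene, was at 12.3, 41.5 and 11.4 CPM. In B lineage cells 44.7%, 91.1% and 50.5% had an Ifi27l2a UMI, a share above that of members in each library (16.5%, 51.4% and 13.4%).

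Not every listed gene followed. Ifitm1 was at 290, 190 and 185 CPM, lower in both irradiated libraries, but its IR over Control ratio of 0.654 became 1.31 when the members with markers of another lineage were left out. Cxcl10, an interferon-induced chemokine gene, was at 15.2, 8.71 and 7.90 CPM, and its IR over Control ratio of 0.572 (0.312 to 0.997) became 1.26 with cells of 3 rule genes included.

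The promoters of Isg15 and Cxcl10 are shown, and these genes of the list had opposite orders in IR and Control members. Only promoters of named interferon genes that held a match to the element given below were kept for display. That each shown promoter holds a match was therefore fixed in advance. RefSeq sequence of build GRCm38.p6 gives the 250 bases before each start, 5′ to 3′ on the gene's strand, at chr4:156200819-156201068 (minus strand) for Isg15 and chr5:92348890-92349139 (minus strand) for Cxcl10. Capitals mark matches to the interferon-stimulated response element written as GAAA, any 2 bases and GAAA again, searched on both strands.
Isg15: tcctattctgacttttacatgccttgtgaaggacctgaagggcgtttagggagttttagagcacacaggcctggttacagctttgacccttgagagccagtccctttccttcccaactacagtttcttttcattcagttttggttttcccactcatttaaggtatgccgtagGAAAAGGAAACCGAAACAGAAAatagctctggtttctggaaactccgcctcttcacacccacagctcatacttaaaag
Cxcl10: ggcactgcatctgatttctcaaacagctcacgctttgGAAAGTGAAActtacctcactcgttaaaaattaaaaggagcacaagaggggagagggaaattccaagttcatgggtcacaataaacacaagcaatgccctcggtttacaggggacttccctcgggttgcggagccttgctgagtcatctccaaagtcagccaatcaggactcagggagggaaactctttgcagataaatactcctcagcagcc
Isg15 held 3 overlapping matches and Cxcl10 held 1. Over the interferon list, 24 of 55 genes with an entry had a match (43.6%), against 936 of 27025 genes overall (3.46%). Of 7 rule genes with an entry, 2 had a match (28.6%). A match describes letters in this window and is no evidence of binding.

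MHC class I genes were higher in IR members by smaller steps. Of 22 genes 21 were higher in IR than in Control members, 10 of them (45.5%) by 1.5-fold or more against 6.15% of all genes, with a median log2 ratio of 0.49. In IR+CBD over IR 21 were lower with a median of -0.30, and the 2 past 1.5-fold (9.09%) were a share near the 7.98% of all genes. B2m, the shared light chain, was at 1030, 1758 and 1351 CPM, and the heavy chain gene H2-K1 was at 634, 1130 and 851 CPM. H2-Q7 was at 187, 424 and 288 CPM, and IR was 2.27 times Control (2.05 to 2.51). Nlrc5, the transactivator of class I genes, was at 16.5, 41.5 and 26.6 CPM. Levels in IR+CBD members lay between the others for these 4 genes.

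The same lists moved in other cells of the libraries. The interferon median for IR over Control was 1.03 in all other kept cells, 1.17 in B lineage cells, 1.27 in cells with erythroid markers and 1.08 in cells with granulocyte and monocyte markers, against 0.81 in members. For IR+CBD over IR it was -0.85 in all other kept cells and -0.72 in members. As a measure of RNA from other cells, the granulocyte and monocyte list had a median of 886, 719 and 733 CPM in members, 2.05%, 1.66% and 1.43% of its level in the other cells. The same percentages of the other cells' interferon level come to 70.9, 80.3 and 42.7 CPM, against medians of 2585, 4202 and 2711 CPM per member. These figures describe the median member only. Summed over members, the granulocyte and monocyte list was at 10862, 12102 and 13750 CPM, against 43241, 43402 and 51241 CPM in other cells. The part of RNA from other cells in the result was not tested.

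Immediate early genes, which respond within minutes to growth factors, were lower in both irradiated libraries. Of 32 genes 28 were lower in IR than in Control members, 11 by 1.5-fold or more against 4.82% of all genes, and the median log2 ratio was -0.41. Without members carrying another lineage's markers this median was -0.19 over 24 genes. Jun was at 1396, 794 and 1095 CPM, and IR was 0.569 times Control (0.537 to 0.602). Egr1 was at 322, 183 and 152 CPM, and Nr4a1, an orphan nuclear receptor gene, was at 183, 95.8 and 82.9 CPM. Egr1 and Nr4a1 were lowest in IR+CBD members, though the Egr1 ratio of IR+CBD over IR, at 0.826, was 1.11 with cells of 3 rule genes included. The list median for IR+CBD over IR was -0.12, with Fosb higher at 169, 98.9 and 152 CPM and Ier3 lower at 154, 124 and 64.6 CPM. In all other kept cells the list median was -0.57 for IR over Control and 0.13 for IR+CBD over IR.

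**Figure D5:**
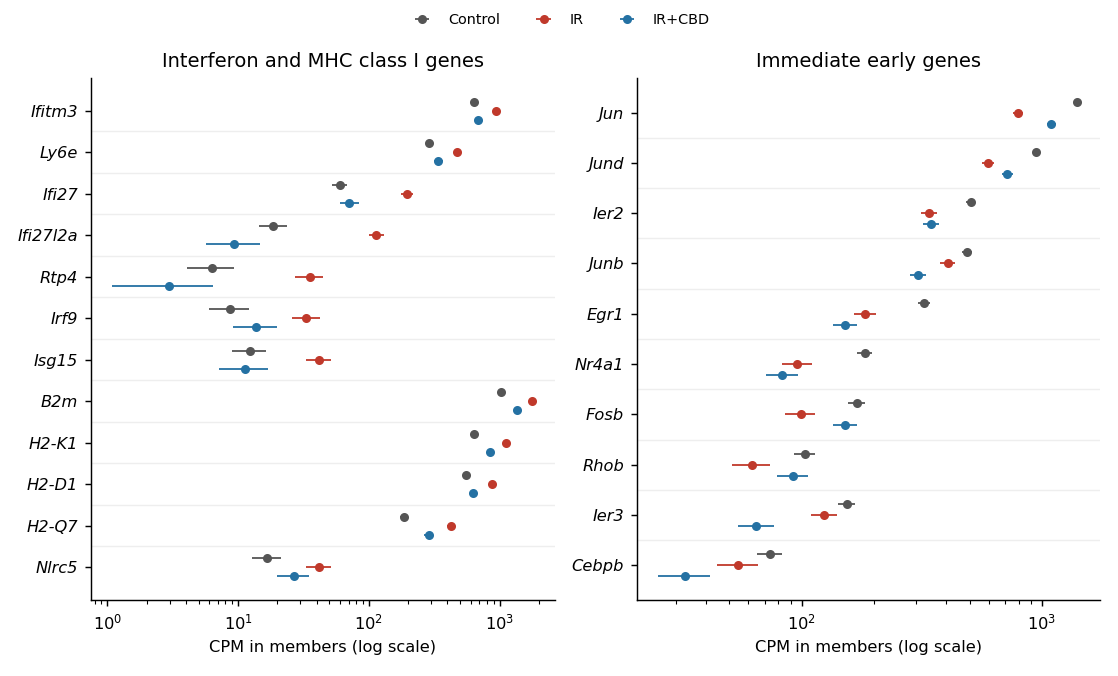
CPM summed over members (log scale) for interferon and MHC class I genes, left, and for immediate early genes, right, with points for the Control, IR and IR+CBD libraries and lines for exact 95% Poisson intervals. IR members lie highest for each gene on the left, and Control members lie highest for each gene on the right.

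Platelet receptor and surface genes had no common direction. Of 24 genes 5 (20.8%) were 1.5-fold or more higher in IR than in Control members and 3 (12.5%) lower, against 6.15% and 4.82% of all genes, with a median log2 ratio of 0.03. Selp, the P-selectin of alpha granules, was at 14.2, 35.9 and 39.0 CPM, and IR was 2.53 times Control (1.75 to 3.68). It had a UMI in 18.2%, 42.9% and 41.2% of members and in 3.35%, 4.49% and 3.91% of B lineage cells. Icam2 was at 40.9, 69.1 and 41.0 CPM and Cd84, a receptor of the SLAM family, was at 29.1, 52.8 and 36.5 CPM, each highest in IR members. Clec1b, the podoplanin receptor CLEC-2, was at 17.8, 5.12 and 6.42 CPM. Itgb3, the beta3 partner of Itga2b, was at 33.1, 24.6 and 48.4 CPM, and IR+CBD was 1.97 times IR (1.38 to 2.84).

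Alpha-granule and secreted products were mixed as well. Of 15 genes 0 were 1.5-fold higher in IR than in Control members and 3 (20%) were lower, against 6.15% and 4.82% of all genes. In IR+CBD over IR 4 (26.7%) were higher and 2 (13.3%) lower, against 3.87% and 7.98%. Serpine2, the thrombin inhibitor protease nexin-1, was at 88.7, 31.8 and 56.3 CPM with a UMI in 84, 20 and 39 members. Vwf was at 79.7, 77.3 and 113 CPM, so the IR over Control ratio of 0.970 had an interval that held 1 (0.793 to 1.18), and IR+CBD was 1.46 times IR (1.18 to 1.81). Angpt1, which encodes the Tie2 ligand angiopoietin-1, was abundant at 1221, 1400 and 1451 CPM. F13a1, a coagulation factor gene, was at 40.1, 45.1 and 16.8 CPM, and its IR+CBD over IR ratio of 0.372 became 0.812 without the 5 deepest members of each library.

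Granule transport genes had a median log2 ratio of 0.12 for IR over Control and -0.08 for IR+CBD over IR. Vamp5, which the study used with Pf4 to mark megakaryocyte-erythroid progenitors, was at 400, 535 and 478 CPM. Snap23, a SNARE of platelet secretion, was at 62.2, 97.8 and 88.8 CPM. Slc35d3 and Hps4, whose loss impairs dense granules, were lower in IR than in Control members, with Slc35d3 at 22, 9.73 and 8.39 CPM and Hps4 at 19.4, 10.2 and 18.3 CPM. Of 21 genes 2 (9.52%) were 1.5-fold or more higher in IR than in Control members and 4 (19.0%) lower, against 6.15% and 4.82% of all genes.

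Platelet signalling and cytoskeletal genes had few members past 1.5-fold. Of 31 signalling genes 0 were 1.5-fold higher in IR than in Control members and 3 (9.68%) were lower, against 6.15% and 4.82% of all genes. Rgs10, a regulator of G-protein signalling, was at 140, 70.7 and 80.9 CPM, and IR was 0.505 times Control (0.415 to 0.610). Gng11, a G-protein gamma subunit gene, was at 88.7, 43.0 and 58.2 CPM. Rap1b, the GTPase that leads to integrin activation, was at 784, 600 and 785 CPM. Of 26 cytoskeletal genes 1 was higher and 1 lower by that fold (3.85% each): Mylk, myosin light chain kinase, was at 7.34, 24.6 and 15.3 CPM, and Plek, the protein kinase C substrate pleckstrin, was at 337, 205 and 278 CPM. Rgs10, Gng11 and Plek were lowest in IR members, with IR+CBD levels that stayed under those of Control members.

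Transcription factors of the megakaryocyte and erythroid programme leaned higher in IR members, for 22 of 26 genes (84.6%, against 56.7% of all genes). The median log2 ratio was 0.18, but it was -0.02 when members with markers of another lineage were left out. In IR+CBD over IR it was -0.11, and 0.07 without those members. Runx1 was at 1043, 1151 and 1148 CPM. Mecom was at 128, 185 and 245 CPM, so IR was 1.45 times Control (1.26 to 1.66) and IR+CBD was 1.32 times IR (1.15 to 1.52). Without members carrying another lineage's markers the first of these Mecom ratios was 0.941. Erg was at 51.2, 86.0 and 68.1 CPM, and its IR over Control ratio of 1.68 became 1.10 when members with over 3000 CPM of another lineage's genes were left out. Srf and Mrtfa, partners in actin-dependent transcription, were lower in IR+CBD than in IR members, with Srf at 12.9, 16.9 and 7.40 CPM and Mrtfa at 42.5, 52.8 and 32.1 CPM.

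Thrombopoietin signalling genes were lower in IR+CBD than in IR members for 17 of 20 genes, by small steps, with a median log2 ratio of -0.22. The share that was higher was 15%, against 41.3% of all genes. Past 1.5-fold, 1 gene (5%) was lower, against 7.98% of all genes. Pim1, a kinase gene induced by STAT5, was at 188, 203 and 131 CPM, and Jak2, a kinase gene of cytokine receptor signalling, was at 67.2, 78.9 and 55.3 CPM. Socs2 was at 11.5, 25.1 and 25.2 CPM, higher in both irradiated libraries. Socs3 was at 26.5, 12.3 and 10.4 CPM, lower in both. These feedback inhibitors of cytokine receptors thus had opposite orders.

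Stem and early progenitor genes held some of the largest ratios. Ly6a, which encodes the stem cell antigen Sca-1 and responds to interferon, was at 2.36, 33.8 and 6.91 CPM. It had a UMI in 5 of 170, 22 of 70 and 7 of 97 members, so the IR over Control ratio was 14.3 (7.10 to 32.7) and the IR+CBD over IR ratio 0.204 (0.106 to 0.368). With cells of 3 rule genes included the first was 7.56. In B lineage cells 6.23%, 10.4% and 2.73% had a Ly6a UMI. Slamf1 (CD150) was at 11.3, 31.8 and 31.1 CPM and Cd48 at 82.9, 142 and 108 CPM, both higher in the irradiated libraries. Of 14 genes 4 (28.6%) were 1.5-fold or more higher in IR than in Control members and 2 (14.3%) lower, against 6.15% and 4.82% of all genes.

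Of the genes ranked by the bound of their ratio nearest to 1, several with lower IR values were spread over many members. Klk8, a serine protease gene, had a UMI in 136 of 170 Control members, 34 of 70 IR members and 55 of 97 IR+CBD members, at 93.4, 34.3 and 51.3 CPM. Rhobtb3 was at 31.2, 10.2 and 19.7 CPM with a UMI in 77, 16 and 30 members. Bex1 was at 20.7, 4.10 and 9.38 CPM in 42, 6 and 11 members. Chsy3, a chondroitin synthase gene, was 3.05 times as high in IR+CBD as in IR members (2.02 to 4.72), at 34.1, 15.9 and 48.4 CPM in 38, 8 and 23 members. For these 4 genes the IR library was lowest.

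Cell cycle genes split by phase. G2/M genes were higher in IR than in Control members for 49 of 53 genes (92.5%, against 56.7% of all genes), with a median log2 ratio of 0.32. Past 1.5-fold, 5 (9.43%) were higher and 1 (1.89%) was lower, against 6.15% and 4.82% of all genes. The list summed to 7084, 8430 and 7489 CPM, and single members ranged from 932 to 21291 CPM in the Control library, so members within a library differed far more than the libraries did. Ccnb1, cyclin B1, was at 52.2, 89.1 and 60.7 CPM, Tpx2 at 86.3, 135 and 92.8 CPM and Mki67 at 226, 284 and 199 CPM. The G2/M median for IR+CBD over IR was -0.18, and it was 0.08 without members carrying another lineage's markers, where the Mki67 ratio of 0.703 became 1.47. In B lineage cells the G2/M median for IR over Control was -0.22. S phase genes had medians of -0.03 and 0.13, with Pcna at 286, 248 and 319 CPM. Regulators of endomitosis had medians of 0.13 and -0.04, and Ccnd1, cyclin D1, was at 26.8, 55.8 and 54.3 CPM.

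The p53 response list, which radiation damage induces in many cells, showed no common direction at 14 DPI. Of 21 genes 10 (47.6%) were higher in IR than in Control members, against 56.7% of all genes, with a median log2 ratio of -0.05. By 1.5-fold or more, 3 (14.3%) were higher and 4 (19.0%) lower, against 6.15% and 4.82% of all genes. In IR+CBD over IR the median was -0.01, and 0.38 over 10 genes without members carrying another lineage's markers. Cdkn1a, the p21 cell cycle inhibitor, was at 92.1, 57.4 and 65.1 CPM, lowest in IR members. Pvt1, a long noncoding RNA gene with p53 sites, was at 23.3, 61.0 and 50.3 CPM. BCL2 family genes had medians of 0.24 and -0.19, which turned to -0.18 and 0.27 without members carrying another lineage's markers. Of 75 oxidative phosphorylation genes, 53 ribosomal protein genes and 25 antioxidant genes, 0 were past 1.5-fold in either comparison. Ribosomal protein genes shared a small shift, lower for 48 of 53 genes in IR over Control (median -0.11) and higher for 48 of 53 in IR+CBD over IR (median 0.09), a shift that turned in both comparisons, to 0.02 and -0.07, without members carrying another lineage's markers. NF-kB feedback and chemokine genes had medians of 0.00 and -0.36, which became -0.27 and 0.00 without members over 3000 CPM of another lineage. Of 18 genes that encode proposed CBD targets, 5 had enough UMIs and 0 were past 1.5-fold.

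Among genes the study names for these libraries, Atf2 was at 65.1, 83.5 and 64.6 CPM in members, with an IR over Control ratio of 1.28 (1.05 to 1.57) and an IR+CBD over IR ratio of 0.774 (0.611 to 0.981). The integrin subunit gene Itga4, which the study's text does not name, was at 108, 171 and 147 CPM. Alcam, an adhesion molecule gene, was at 26.8, 12.3 and 28.1 CPM, and its IR+CBD over IR ratio of 2.29 became 1.21 with Car1 at 0 in every member.

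Markers of other lineages moved with some of these values. The granulocyte and monocyte list summed to 10862, 12102 and 13750 CPM in members, against 43241, 43402 and 51241 CPM in other cells, and all of its 20 genes had UMIs in members. Markers of another lineage, as at least 4 genes of 1 such list with 2 or more UMIs each, were carried by 111, 46 and 53 members (65.3%, 65.7% and 54.6%). For the granulocyte and monocyte list these were 62.4%, 58.6% and 50.5% of members, and for the erythroid list 4.12%, 18.6% and 7.22%. Of B lineage cells, 23.96%, 13.09% and 14.01% also had 4 genes of the granulocyte and monocyte list. Their median depths were 4002, 3867 and 3405 UMIs, against 18617, 21427.5 and 18961 UMIs in members. The part of depth in these percentages was not tested. Over 3000 CPM of another lineage's list were found in 26, 13 and 12 members, 23, 10 and 10 of them for the granulocyte and monocyte list. The basophil and mast list summed to 1588, 2090 and 1514 CPM, with median log2 ratios of 2.84 for IR over Control and -2.32 for IR+CBD over IR over 8 genes. Its median per member was 1473, 1629 and 1447 CPM, but 0 in each library with Srgn and Gata2 not counted. Those genes were counted in the sums and in the rule of 4 genes. One IR member had 26653 CPM of the whole list. Without members over 3000 CPM of another lineage 3 of the list's genes had enough UMIs, with medians of 0.17 and -0.09. The B lineage list summed to 257, 696 and 389 CPM, with medians of 1.17 and -0.33 over 10 genes, and without members over 3000 CPM the medians turned to -1.34 and 1.63 over 4 genes. Both lists were highest in IR members, as the interferon list was. The erythroid list summed to 555, 642 and 867 CPM, and the endothelial list to between 73.8 and 75.3 CPM with Cldn5 and Stab2 at 0 in each library. Lineage markers were often held by 1 cell: 281 of the 289 Mcpt8 UMIs in IR members, a basophil protease gene, came from 1 member, as did 48 of 51 for Prss34. In the IR+CBD library 1 member held 111 of 114 UMIs of Hba-a2, an alpha-globin gene, and 1 member held all 199 UMIs of Stfa1. Ratios of such genes describe single cells. Without the members over 3000 CPM the interferon medians were 0.63 and -0.70, the immediate early medians -0.61 and -0.10 and the G2/M medians 0.40 and -0.22.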

How the data were processed

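The authors deposited raw UMI counts (56980 genes by barcode, not normalised) for each library. The submitters' processing notes and the methods name Cell Ranger 4.0, and the matrix headers name 7.0.1. The notes give build GRCm39, and no coordinates of that build are printed. The promoters shown carry coordinates of GRCm38.p6. The methods removed doublets with DoubletFinder, which was not used here.

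Cells were kept and members chosen as stated in the report, and members and gene lists were chosen with earlier results of these data known. UMIs were summed per gene over the members of a library and divided by the members' total (3812171, 1952392 and 2026311 UMIs for Control, IR and IR+CBD) to give CPM. Intervals were exact: Clopper-Pearson for shares, Poisson for CPM and conditional binomial for ratios. No p-value was computed. B lineage cells had a UMI in at least 3 of a set of B lineage genes that included Cd79a, Cd79b, Ebf1, Pax5 and Vpreb3. Some genes of the lists are not reported here. A ratio was counted at 1.5-fold or more among genes with at least 50 UMIs. A member carried markers of another lineage when at least 4 genes of 1 such list had 2 or more UMIs each. Of 840 listed genes, 824 were found. Genes named were the rule genes and Car1, in each list up to 4 with most UMIs and 4 highest and 4 lowest in each comparison by the interval bound nearest to 1, the 10 highest and 10 lowest of all genes, the 20 highest in members over other cells, and genes the study names. Marker genes shown for the label and the strata were chosen after their values were seen. The calculations were tested on simulated data. Alternatives were 14 planned and 2 added after seeing the data, which left out members over 3000 CPM of another lineage's list (Srgn and Gata2 not counted) and the 5 deepest members. Python 3.11.15, numpy 2.4.6, scipy 1.17.1, pandas 2.3.3, matplotlib 3.10.9 and scanpy 1.11.5 were used.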

Additional observations from a re-analysis of the deposited data

How the results depend on the processing

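No paired analysis was possible because each condition had 1 library, and for the same reason no library could be left out. Shares depend on the rule. With at least 5 rule genes they were 1.11%, 0.483% and 0.594% in the Control, IR and IR+CBD libraries, and with at least 3 they were 2.43%, 1.15% and 1.53%. Without members carrying another lineage's markers they were 0.553%, 0.232% and 0.428%. The IR+CBD over Control ratio of shares was then 0.775 (0.512 to 1.16), an interval that held 1. Thinned to 2000 UMIs per cell they were 0.165%, 0.0498% and 0.0916%, with an IR over Control ratio of 0.301, and the Control share was 1.35% without members over 3000 CPM of another lineage. The other 28 ratios of shares stayed within the counting interval of the main value.

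Percentages of genes past 1.5-fold differed between the alternatives. For IR higher than Control, IR lower than Control, IR+CBD higher than IR and IR+CBD lower than IR, they were 12.9%, 9.03%, 10.3% and 12.3% thinned to 2000 UMIs. Only 17, 5 and 9 cells met the rule in that setting, and the 12.9% was 20 genes. The parts of depth, cell number and gene number in these percentages were not tested. With at least 1 UMI in each library they were 18.5%, 12.1%, 10.8% and 17.3%. With a minimum of 20 UMIs the first 3 were 9.36%, 7.95% and 6.61%. With a minimum of 100 UMIs the last 3 were 2.77%, 2.07% and 5.30%. Without members carrying another lineage's markers they were 10.0% for IR lower than Control and 10.6% for IR+CBD higher than IR.

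Leaving out members with another lineage's markers, which kept 59, 24 and 44 members, made the interferon medians 0.41 and -0.40 over 23 genes. It turned 18 of 42 list medians, many of them near 0. Among them were transcription factors (-0.0181), ribosomal proteins (0.0155) and the BCL2 family (-0.18) for IR over Control, and G2/M genes (0.0771), transcription factors (0.07), ribosomal proteins (-0.07), the BCL2 family (0.27) and the p53 response (0.38) for IR+CBD over IR. It also turned the ratios of Ifitm1 for IR over Control (1.31) and Lgals1, a galectin gene, for IR+CBD over IR (from 0.627 to 1.09). Ribosomal proteins also turned when thinned (0.0493 and -0.06). The B lineage median for IR over Control became -0.69 with at least 5 rule genes and -0.97 without the highest Scrublet scores.

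The NF-kB median for IR+CBD over IR became 0.00307 without members over 3000 CPM of another lineage. That alternative also turned the IR+CBD over IR ratios of Camp (from 2.29 to 0.634), Elane (from 0.554 to 1.71), Hbb-bs (from 3.87 to 0.296) and Hbb-bt (from 3.29 to 0.913). Without the highest Scrublet scores those of Camp, Elane and Hbb-bs were 0.641, 1.66 and 0.303. Camp for IR over Control, at 1.72, became 0.971 without those scores and 0.768 with 3 rule genes allowed. Cxcl10 for IR over Control became 1.26 with 3 rule genes allowed, 1.22 without the highest Scrublet scores and 1.09 with members weighted equally. Cxcl2 for IR+CBD over IR, at 2.21, became 0.427 with 3 rule genes allowed and 0.545 with no Car1 limit. Vpreb1 for IR+CBD over IR, at 0.604, became 1.18 without the 5 deepest members and 2.71 with members weighted equally. The cause of these turns was not tested. Of the other values of named genes, 1697 moved by less than their counting interval, 275 moved further without turning, and 24 moved further and turned. Leaving out members with another lineage's markers turned 17 of 117 named values in all, among them Angpt1 (from 1.15 to 0.794), Mecom (from 1.45 to 0.941) and Cd9 (from 0.819 to 1.16) for IR over Control and Mki67 (from 0.703 to 1.47) and Plk1 (from 0.712 to 1.61) for IR+CBD over IR. Thinned, B2m for IR+CBD over IR went from 0.768 to 2.04 (1.06 to 4.24), on 56 UMIs in 5 IR and 9 IR+CBD cells.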

Other observations

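The 18 IR cells that carried 4 or more rule genes with Car1 above the limit had interferon genes higher as well, with a median log2 ratio of 0.78 for IR over Control and -0.69 for IR+CBD over IR over 22 genes. Their immediate early median for IR over Control was 0.24, against -0.41 in members. These groups held 15, 18 and 11 cells.

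One IR+CBD member had 610 UMIs, while the lowest depths among Control and IR members were 6852 and 9819 UMIs. It had UMIs in 5 rule genes, and its Pf4 level of 22951 CPM was the highest of that library. Ccl3, a chemokine gene, had 24 UMIs in IR members and 0 in IR+CBD members, an IR+CBD over IR ratio with an exact interval of 0 to 0.160, and 12 of the 24 came from 1 member.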
